A study of Homo sapiens with 12 samples.

Results

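The genes described here encode the nuclear subunits of the mitochondrial respiratory chain and ATP synthase, measured in human cardiomyocytes made from induced pluripotent stem cells. They were chosen by symbol among protein-coding genes and number 91 of the 78894 genes in the count table. Of these, 38 belong to complex I, 4 to complex II, 10 to complex III, 19 to complex IV and 19 to complex V, the ATP synthase, and the last is CYCS, the gene of cytochrome c. NDUFA4 and its paralog NDUFA4L2, named for complex I, were counted with complex IV, where the NDUFA4 protein resides. The study combined endothelin-1, a vasoconstrictor peptide that enlarges cardiomyocytes, with sacubitrilat, which blocks neprilysin and thereby the breakdown of natriuretic peptides. The 4 groups received 10 nM endothelin-1 plus 16 µM sacubitrilat (called both compounds), 10 nM endothelin-1, 16 µM sacubitrilat or DMSO vehicle for 48 h, with 3 independent cultures each. All cells came from WTC-mEGFP-ACTN2-cl85, a single clone with a green fluorescent tag on 1 allele of ACTN2, which encodes a Z-disc protein of the sarcomere, and all were enriched with lactate after differentiation.

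The respiratory chain passes electrons from NADH through complex I and from succinate through complex II to complex III, then by cytochrome c to complex IV, which reduces oxygen, and the proton gradient this builds drives ATP synthase. Its subunits come from both genomes, with the catalytic core of complex IV encoded in mitochondria and most other subunits in the nucleus. The heart depends on this pathway for most of its ATP, and striated muscle expresses its own isoforms of some complex IV subunits, among them COX6A2 in place of COX6A1 and COX7A1 in place of COX7A2.

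Levels are given in CPM, a library's counts scaled to a common total. The libraries count 3′ ends, so a level does not scale with transcript length. Totals were unequal: the 6 endothelin-1 and sacubitrilat libraries held 1268308 to 1953122 counts, and the 6 libraries of both compounds or vehicle 80844 to 316932, a 10.1-fold difference. Endothelin-1 against sacubitrilat (summed totals 1.09-fold apart) and both compounds against vehicle (vehicle 1.49-fold above) compare like totals. Contrasts averaged over the other compound hold 3 high-total and 3 low-total libraries on each side. Every other pairwise comparison, and the interaction, runs along the difference in totals. A second line in the label of the 6 high-total libraries names the other compound, and groups follow the titles and treatment labels. All 20 cardiomyocyte markers had counts, with summed levels of 26898.8 to 55770.2 CPM with both compounds, 32284.8 to 34173.3 CPM with endothelin-1, 24786.8 to 25936.5 CPM with sacubitrilat and 27030.8 to 31888.7 CPM with vehicle.

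Of the 91 genes, 89 had at least 1 count and 83 passed the filter on low counts and were tested. COX7A1 and COX4I2 had 0 counts in every library. ATP5MF-PTCD1, ATP5MGL, COX6B2, NDUFA4L2, COX8C and COX7B2 were too low to test. The 91 genes together took 1.35% to 1.91% of a library's counts. Their summed level was 17231 ± 1748 CPM with both compounds, 14834 ± 186 CPM with endothelin-1, 13696 ± 89.9 CPM with sacubitrilat and 15161 ± 1663 CPM with vehicle (SD, n = 3 each). The SD was larger in the 2 low-total groups than in the 2 high-total ones.

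The complexes differed in their order over the 4 groups. Complex V subunits summed to 3386, 3529 and 3894 CPM with both compounds, 4362, 4499 and 4357 CPM with endothelin-1, 3919, 3844 and 3950.3 CPM with sacubitrilat, and 3401, 3711 and 3693 CPM with vehicle. The endothelin-1 libraries stood above all 9 others. Complex IV subunits summed to 4027, 3401 and 3816 CPM with both compounds, 3862, 3864 and 3641 CPM with endothelin-1, 3424, 3520.2 and 3481 CPM with sacubitrilat, and 3245, 3201 and 3469 CPM with vehicle. Each endothelin-1 library again exceeded each sacubitrilat and vehicle library, while the libraries of both compounds overlapped the rest. Complex III averaged 1723 ± 201 CPM with both compounds, 1827 ± 23.4 CPM with endothelin-1, 1682 ± 18.3 CPM with sacubitrilat and 1539 ± 68.7 CPM with vehicle (SD, n = 3 each). Complex I had its highest sums in the low-total groups, at 7799 ± 1330.5 CPM with both compounds and 6289 ± 1434 CPM with vehicle, against 4382 ± 128 CPM with endothelin-1 and 4255 ± 73.9 CPM with sacubitrilat. The 6 genes picked for the largest rise from endothelin-1 to both compounds were NDUFV1, NDUFS5, NDUFA13, NDUFS8, NDUFB7 and NDUFS6. Together they summed to 3433 CPM more with both compounds. The other 32 complex I genes together differed by -16.3 CPM, a net of rises and falls, and 21 of the 38 had the lower mean with both compounds. Complex II, which oxidises succinate, had its lowest sums with both compounds (140.04 ± 32.7 CPM) and vehicle (188 ± 24.3 CPM), and higher ones with endothelin-1 (278 ± 20.5 CPM) and sacubitrilat (243 ± 20.6 CPM). CYCS stood at 218 ± 41.2 CPM with both compounds, 153 ± 14.6 CPM with endothelin-1, 136 ± 6.90 CPM with sacubitrilat and 238 ± 105 CPM with vehicle. In cultures of several cell types, fewer cells of a type and less RNA per cell cannot be told apart in such sums.

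**Figure D1:**
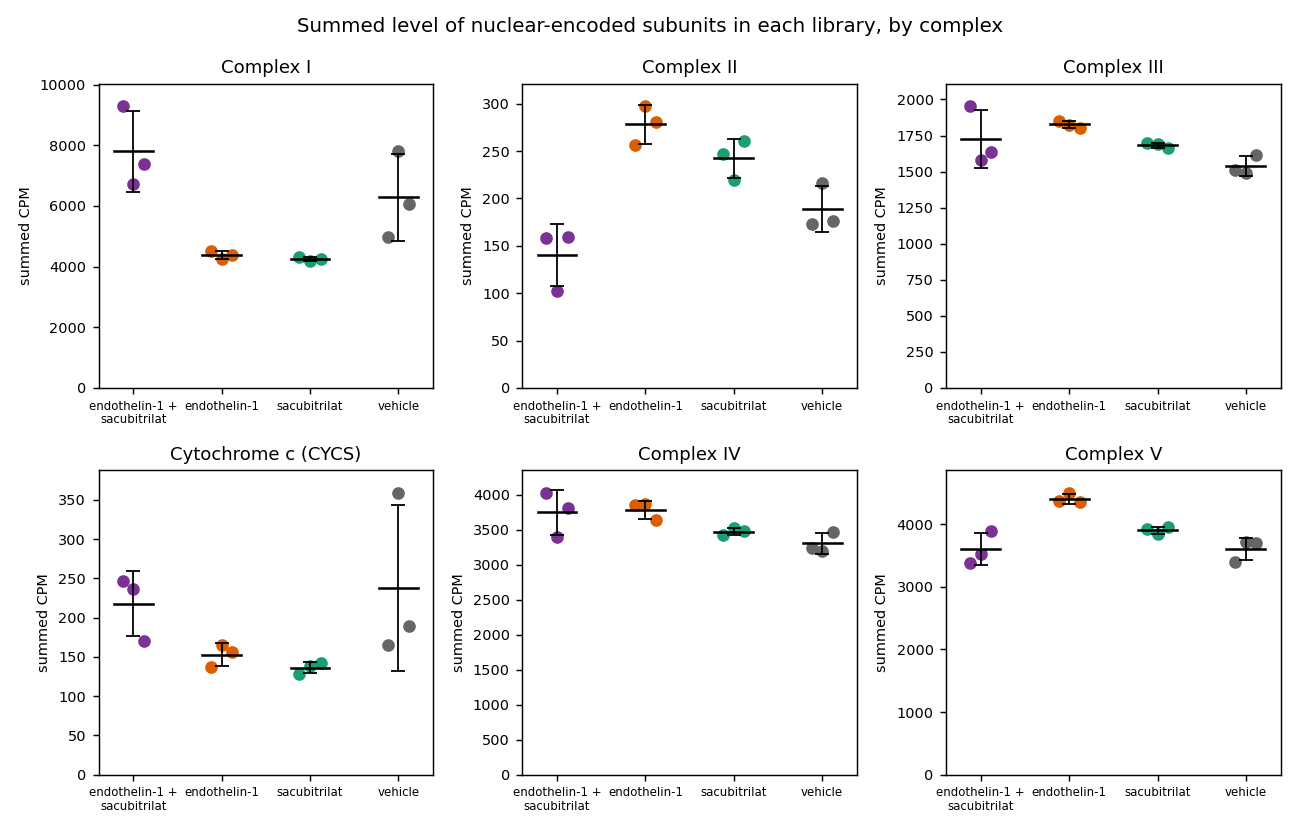
Summed CPM of the nuclear-encoded subunits of each complex (y axis, from 0) in each library, by group (x axis). Points are libraries, the line is the mean and the bar the SD (n = 3). Complex V is highest in the 3 endothelin-1 libraries (4357 to 4499 CPM), and complex I has its highest sums with both compounds and with vehicle.

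Endothelin-1 against sacubitrilat set the 2 single compounds against each other at like totals. Of the 83 tested respiratory chain genes, 11 passed as higher with endothelin-1, 0 as lower and 72 did not pass (edgeR quasi-likelihood test, Benjamini-Hochberg adjusted p under 0.05), beside 6.44% of all tested genes higher and 4.78% lower. The median log2 fold change was 0.20 over the 83 genes and -0.01 over all 11203 tested, with 71 of the 83 positive and 12 negative. At an unadjusted p under 0.05, 32 were higher (38.6%) and 0 lower, beside 12.1% and 11.1% of all tested genes. With the replicate number as a block, which the labels also give as the batch, 4 passed, COX6A2, ATP5MC1, SDHA and NDUFA1. All 17 tested complex V genes, all 10 of complex III and all 4 of complex II had a positive value, as did 12 of 13 in complex IV and 27 of 38 in complex I. The median was 0.29 in complex V, 0.27 in complex IV, 0.27 in complex II, 0.24 in complex III and 0.11 in complex I. In CPM, 28 of the 83 genes had every endothelin-1 library above every sacubitrilat library, beside 10.2% of all tested genes, and 4 had every one below, beside 25.6%. The count of called genes, all higher, was 34 with these 2 groups fitted alone and 0 after thinning every library to 80000 counts. It was 6, 5 and 6 without endothelin-1 replicate 1, 2 or 3, 4 and 7 without sacubitrilat replicate 1 or 3, 18 without replicate 1 of both compounds and 22 without vehicle replicate 2. Shares of all tested genes in these alternative fits are not given here.

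COX6A2, the heart and skeletal muscle isoform of subunit 6A, had the largest difference among the called genes. It lies on chromosome 16 at 31427731 to 31428360 (ENSG00000156885, GRCh38). Its level was 20.8, 15.6 and 15.7 CPM in endothelin-1 libraries (37, 23 and 27 counts), against 7.3, 7.1 and 7.2 CPM in sacubitrilat libraries (10, 9 and 14 counts). The groups did not overlap. The log2 fold change was 1.38 ± 0.28 (SE, n = 3 per group, edgeR adjusted p = 5.67e-04). With the labels as given, COX6A2 was tested in only 14 alternatives, against 22 for ATP5MC1, and passed in all 14. Of these, 6 were fits that left out 1 library, against 12 such fits for ATP5MC1. In the remaining alternatives COX6A2 was not among the tested genes.

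ATP5MC1 on chromosome 17 (48892787 to 48895871) is 1 of the genes that encode the same mature c subunit, which forms the rotating ring of ATP synthase. Its level was 181, 170.3 and 160.5 CPM with endothelin-1, against 126, 137 and 121 CPM with sacubitrilat. All 3 endothelin-1 libraries were above all 3 sacubitrilat ones, with a log2 fold change of 0.54 ± 0.11 (edgeR adjusted p = 5.85e-04). ATP5MC3, which encodes the same mature protein, was higher by 0.39 ± 0.13 on the log2 scale (edgeR adjusted p = 0.0381, or 0.212 with the block), and it passed in 4 of 12 fits that left out 1 library. The remaining c subunit gene, ATP5MC2, stood at 300 ± 18.2 CPM with endothelin-1 and 286 ± 21.5 CPM with sacubitrilat and was not called.

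SDHA, the flavoprotein that oxidises succinate in complex II, was at 77.8, 90.3 and 79.7 CPM with endothelin-1, against 65.7, 54.9 and 63.8 CPM with sacubitrilat (log2 fold change 0.53 ± 0.13, edgeR adjusted p = 3.65e-03). NDUFA1, a small accessory subunit needed for complex I assembly, was at 95.4, 102 and 101 CPM with endothelin-1, against 77.1, 72.9 and 87.0 CPM with sacubitrilat (0.44 ± 0.12, edgeR adjusted p = 0.0114). COX7B, an accessory subunit of complex IV, was at 212, 213 and 195 CPM with endothelin-1, against 168, 169.9 and 164 CPM with sacubitrilat (0.42 ± 0.11, edgeR adjusted p = 7.02e-03, or 0.0502 with the block). None of these 3 genes had overlapping groups. SDHA, NDUFA1, COX7B and ATP5MC1 each passed in all 12 fits that left out 1 library. Among the 11 called genes, COX5A was higher by 0.47 ± 0.12 (edgeR adjusted p = 8.43e-03, or 0.101 with the block). The last 4, named after their values were seen because they complete the count, were UQCRC2, a core subunit of complex III (0.37 ± 0.12), UQCRQ, a small subunit of complex III (0.35 ± 0.11), ATP5F1C, the central gamma subunit of ATP synthase (0.37 ± 0.10), and ATP5ME, its membrane subunit e (0.35 ± 0.11).

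**Figure D2:**
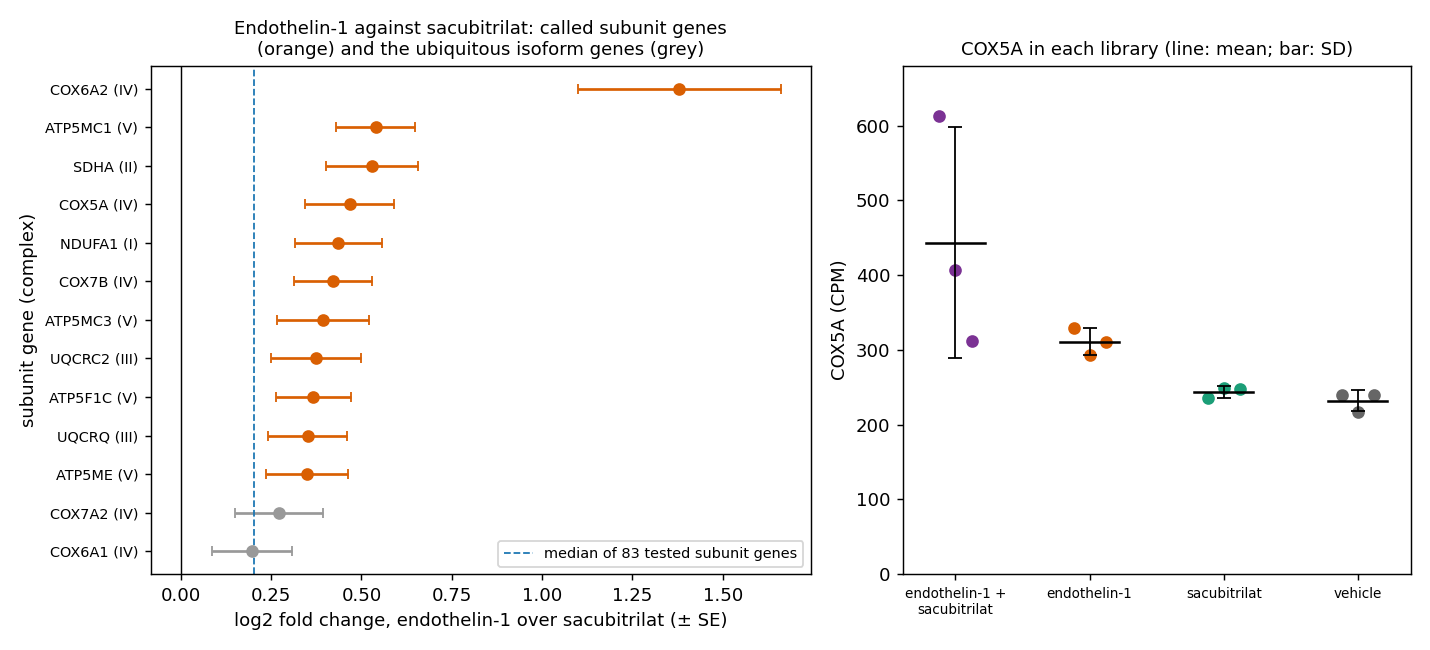
Left: log2 fold change of endothelin-1 over sacubitrilat (x axis, ± SE) for the 11 called subunit genes (orange) and for COX7A2 and COX6A1 (grey), with the complex in brackets and the median of the 83 tested genes as a dashed line at 0.20. Right: CPM of COX5A in each library (y axis, from 0) by group, with mean and SD; all 6 libraries given endothelin-1 lie above all 6 without it.

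Genes around the respiratory chain were compared in the same way, beside the same 6.44% of all tested genes higher and 4.78% lower. Of 13 tested tricarboxylic acid cycle enzymes, which supply its NADH and succinate, 6 were higher and none lower with endothelin-1 than with sacubitrilat, with IDH3A at 0.67 ± 0.17 and IDH2 at 0.61 ± 0.13 on the log2 scale. Among 53 tested assembly factors, none was lower and 3 were higher, 5.66% and so near the 6.44% of all tested genes called higher. The higher ones included ECSIT, an assembly factor of complex I (0.67 ± 0.17), and COX14, one of complex IV (0.60 ± 0.14). PPARGC1A, a coactivator that raises transcription of mitochondrial genes, was higher by 1.10 ± 0.22 (edgeR adjusted p = 3.77e-04), and PRKAA2, a catalytic subunit of the energy sensor AMPK, by 0.47 ± 0.12. Of 17 tested regulators of mitochondrial biogenesis, 3 were higher and 1 lower, the lower one being GABPB1 (-0.64 ± 0.20), a subunit of the nuclear respiratory factor NRF2. The 13 mitochondrially encoded subunits all had positive values (median 0.41), and none passed by edgeR, with 3 at an unadjusted p under 0.05.

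Markers of cell types moved in the same comparison. Of 20 cardiomyocyte markers, 10 were higher and none lower with endothelin-1, with the ventricular light chain gene MYL2 at 2.30 ± 0.16 and MYH7 at 1.58 ± 0.25. Among 9 tested epicardial markers, none was higher and 6 lower, including ALDH1A2 (-2.20 ± 0.33) and TBX18 (-1.98 ± 0.19). The summed level of the 11 epicardial markers, all of which had counts, was 6472 to 6758 CPM with endothelin-1 and 8264 to 8477 CPM with sacubitrilat, ranges that do not overlap. Summed smooth muscle markers were at 4262 to 4362 CPM with endothelin-1 and 3446 to 3589 CPM with sacubitrilat. The part of cell composition in the respiratory chain result was not tested.

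The promoters of COX6A2 and its ubiquitous partner COX6A1 are shown to set the isoform genes beside each other, and those of COX5A and ATP5MC1 as further called genes, all chosen after their values were seen. Each sequence holds the 250 bases before the gene's start, 5′ to 3′ on the gene's strand, from RefSeq on GRCh38.p14. Capitals mark every match, on either strand, to 5 motifs: the NRF1 motif, ETS (CCGGAAG, the core bound by NRF2), ERR (AAGGTCA), MEF2 (TAAAAATA) and a muscle E-box (CAGCTG). No motif match overlapped another in these 4 windows.
COX6A2, chr16:31428361-31428610, minus strand: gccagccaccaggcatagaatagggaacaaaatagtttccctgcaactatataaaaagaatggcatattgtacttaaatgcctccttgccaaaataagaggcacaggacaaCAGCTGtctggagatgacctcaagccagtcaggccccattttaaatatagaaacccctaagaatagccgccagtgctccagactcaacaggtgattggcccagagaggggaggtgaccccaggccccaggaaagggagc
COX6A1, chr12:120437863-120438112, plus strand: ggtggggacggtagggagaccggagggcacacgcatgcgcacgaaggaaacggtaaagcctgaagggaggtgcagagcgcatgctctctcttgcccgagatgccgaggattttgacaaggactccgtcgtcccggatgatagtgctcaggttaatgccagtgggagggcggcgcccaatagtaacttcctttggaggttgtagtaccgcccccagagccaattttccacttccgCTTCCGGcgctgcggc
COX5A, chr15:74938074-74938323, minus strand: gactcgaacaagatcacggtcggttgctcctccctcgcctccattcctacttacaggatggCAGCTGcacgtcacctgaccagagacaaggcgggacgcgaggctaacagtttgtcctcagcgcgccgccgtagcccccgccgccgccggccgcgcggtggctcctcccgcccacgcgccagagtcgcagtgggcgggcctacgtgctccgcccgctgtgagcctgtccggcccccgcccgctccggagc
ATP5MC1, chr17:48892537-48892786, plus strand: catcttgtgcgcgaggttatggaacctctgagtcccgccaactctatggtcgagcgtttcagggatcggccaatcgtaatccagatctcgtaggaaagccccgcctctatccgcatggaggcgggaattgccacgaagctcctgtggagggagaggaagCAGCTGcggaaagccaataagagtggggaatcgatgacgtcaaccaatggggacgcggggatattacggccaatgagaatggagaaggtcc

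The COX6A2 window held 49.2% G + C and a single match, an E-box 139 bases before the start. COX6A1 held 60.0% G + C and an ETS match 16 bases before the start. COX5A (70.8% G + C) and ATP5MC1 (56.0% G + C) each held an E-box, at 189 and 91 bases before the start. RefSeq promoters matched 71 of the 91 genes. NRF1 was found in 15 of these (21.1%), beside 5.07% of 35116 promoters of the same length. ETS was found in 17 (23.9%, beside 8.52% of all), ERR in 5 (7.04%, beside 3.44%), E-box in 10 (14.1%, beside 14.0%) and MEF2 in 0 (beside 2.09%). A match is a description of the letters and was not tied to the measured levels.

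Endothelin-1 averaged over sacubitrilat asks what the peptide changed on average over cultures with and without the inhibitor, at balanced totals. COX5A, a nuclear subunit of complex IV on chromosome 15 (74919791 to 74938073), had higher levels in the groups given endothelin-1 than in those without it. For endothelin-1 against vehicle alone, which runs along the difference in totals, its log2 fold change was 0.43 and was not called by edgeR. Its level was 613, 406 and 311 CPM with both compounds and 329.5, 293 and 311 CPM with endothelin-1, against 235, 249.5 and 248 CPM with sacubitrilat and 239.8, 216.5 and 240.3 CPM with vehicle. All 6 libraries given endothelin-1 stood above all 6 that were not, which held for 1 of the 83 respiratory chain genes and for 0.232% of all tested genes. The averaged log2 fold change was 0.65 ± 0.13 (SE, 6 libraries on each side, edgeR adjusted p = 2.97e-03). COX5A passed in all 12 fits that left out 1 library (adjusted p 1.88e-03 to 0.0339) and in 19 of 21 alternatives with the labels as given, where adjusted p ran to 0.145.

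In all, 3 of 83 genes passed as higher and 0 as lower in this averaged contrast, beside 1.01% and 0.821% of all tested genes. The other two encode parts of the peripheral arm of complex I. NDUFV1, the flavoprotein that takes electrons from NADH, was higher on average by 0.73 ± 0.17 on the log2 scale (edgeR adjusted p = 0.0125), and passed in 6 of 12 fits that left out 1 library. NDUFS8, an iron-sulfur subunit, was higher on average by 0.39 ± 0.11 (edgeR adjusted p = 0.0495), and passed in 2 of 12. Both averages joined opposite called differences. NDUFV1 was lower with endothelin-1 against vehicle (-1.38 ± 0.25) and higher with both compounds against sacubitrilat (2.84 ± 0.24). NDUFS8 likewise had -0.92 ± 0.16 and 1.71 ± 0.16. Those comparisons run along the difference in totals. With the replicate block COX5A alone passed, with adjusted p = 0.0696 for NDUFV1 and 0.185 for NDUFS8 by edgeR. With the endothelin-1 and sacubitrilat labels exchanged, none of the 3 passed. Sacubitrilat averaged over endothelin-1 gave 0 called genes of 83 by edgeR, beside 0.259% of all tested genes (0.0536% higher and 0.205% lower). At an unadjusted p under 0.05, 0 were higher and 7 lower (8.43%), beside 3.86% and 6.26% of all tested genes. DESeq2 called 1, as lower, beside 1.01% of all genes it tested. For none of the 83 genes did the 6 libraries given sacubitrilat lie wholly above or below the other 6, which held for 0.0982% and 0.0625% of all tested genes. The median was -0.09 over the 83 genes and -0.04 over all.

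Both compounds against vehicle, the comparison of like low totals, called none of the 83 genes by edgeR, beside 0.179% of all tested genes (0.0803% higher and 0.0982% lower). At an unadjusted p under 0.05, 9 were higher and 5 lower (16.9% in all), beside 11.6% of all tested genes. DESeq2 called 5, all higher with both compounds, beside 1.39% of all genes it tested. The median log2 fold change was 0.00 and 42 values were positive. The smallest adjusted p belonged to COX5A (0.84 ± 0.22 on the log2 scale, edgeR adjusted p = 0.111) and NDUFV1 (0.94 ± 0.26, edgeR adjusted p = 0.121). The libraries of these 2 groups held 80844 to 316932 counts, and the part of depth in the lack of calls was not tested.

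The isoform pairs of complex IV showed mostly the ubiquitous gene. COX6A1 (ENSG00000111775, chromosome 12, 120438113 to 120440730) was at 188 ± 29.3 CPM with both compounds, 234 ± 12.9 CPM with endothelin-1, 222 ± 15.1 CPM with sacubitrilat and 156 ± 32.0 CPM with vehicle (SD, n = 3 each). The COX6A2 share of the counts of both genes was 10.0%, 3.92% and 12.7% with both compounds, 8.42%, 5.89% and 6.45% with endothelin-1, 3.24%, 2.89% and 3.32% with sacubitrilat, and 10.3%, 11.9% and 4.65% with vehicle. The 3 sacubitrilat libraries lay below all 9 others. In the low-total groups the share rested on few counts: 7 COX6A2 counts in the 3 libraries of both compounds and 9 in the 3 vehicle libraries, against 87 with endothelin-1 and 33 with sacubitrilat. Pooled over a group, the share was 9.09% with both compounds (95% exact interval 3.73% to 17.8%), 6.97% with endothelin-1 (5.62% to 8.52%), 3.17% with sacubitrilat (2.19% to 4.42%) and 9.38% with vehicle (4.38% to 17.1%). These intervals cover counting error only.

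Averaged over sacubitrilat, the COX6A2 share was 1.83 percentage points higher with endothelin-1 than without (exact permutation test, two-sided, p = 0.40, adjusted p = 0.80 over 4 tests, of which the 2 on COX7A1 were void at 0 counts). Averaged over endothelin-1, it was -1.94 percentage points with sacubitrilat minus without (exact permutation test, p = 0.35, adjusted p = 0.80). The smallest p this design allows is 0.005, and 3 libraries against 3 cannot go below 0.10. COX6A1 also has 7 annotated pseudogenes of its name, which held 325 counts beside its own 2326.5, so reads may be split among them.

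**Figure D3:**
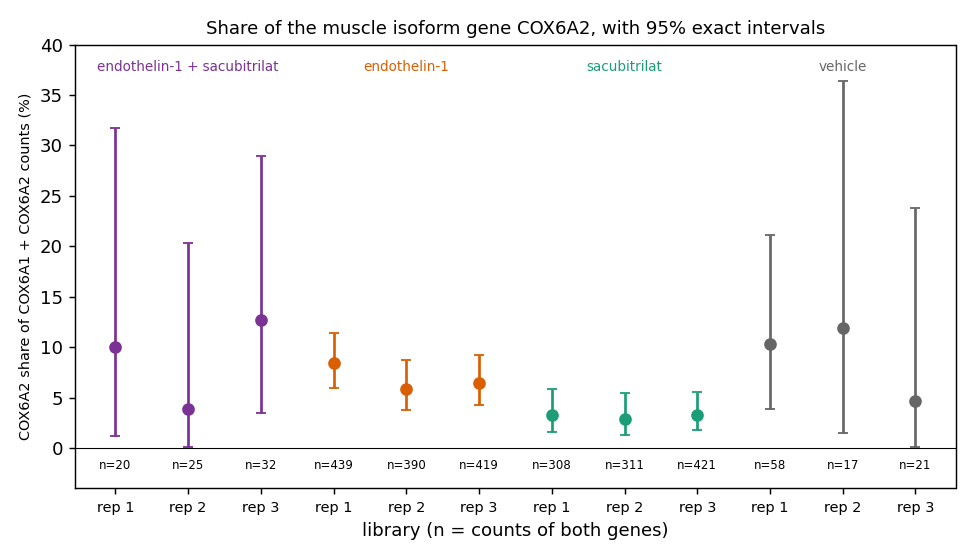
Share of COX6A2 in the counts of COX6A1 and COX6A2 (y axis, %) in each library, with 95% exact binomial intervals that cover counting error only. The number under each point is the count of both genes in that library. The 3 sacubitrilat libraries lie at 2.89% to 3.32%, and intervals are wide with both compounds and with vehicle.

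COX7A1, the muscle isoform of subunit 7A on chromosome 19 (36150922 to 36152447), was not detected in any library. Its partner COX7A2 (chromosome 6, 75237675 to 75250298) had 111 counts with both compounds, 1274 with endothelin-1, 1056 with sacubitrilat and 101 with vehicle. A count of 0 allows a COX7A1 share of up to 2.70% with both compounds, 0.235% with endothelin-1, 0.284% with sacubitrilat and 2.97% with vehicle, by 3 counts of the pair's total. COX7A2 was at 273 ± 126 CPM with both compounds, 257 ± 18.0 CPM with endothelin-1, 231 ± 7.62 CPM with sacubitrilat and 185 ± 18.4 CPM with vehicle (SD, n = 3 each). Endothelin-1 against sacubitrilat gave a log2 fold change of 0.27 ± 0.12 for COX7A2 and 0.20 ± 0.11 for COX6A1, and neither passed (edgeR adjusted p = 0.163 and 0.293).

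Other paralogs with restricted expression were at or near the floor. COX4I2, the isoform of lung and hypoxic tissue, had 0 counts in all 12 libraries, and its partner COX4I1 stood at 362 ± 43.5 CPM with both compounds, 465 ± 20.8 CPM with endothelin-1, 405 ± 16.5 CPM with sacubitrilat and 343 ± 30.6 CPM with vehicle. The testis isoforms COX8C and COX7B2 had 3 and 4 counts in all, and COX6B2 had 12. NDUFA4L2, induced by hypoxia in other tissues, had 2 counts with both compounds, 7 with endothelin-1, 10 with sacubitrilat and 2 with vehicle. COX7A2L, a paralog of COX7A2 whose protein joins complexes III and IV, stood at 47.3 ± 4.09 CPM with both compounds, 88.9 ± 6.18 CPM with endothelin-1, 97.4 ± 10.7 CPM with sacubitrilat and 65.2 ± 13.9 CPM with vehicle. Within the c ring, ATP5MC3 gave 57.0 ± 7.23% of the counts of its 3 genes with both compounds, 47.7 ± 2.20% with endothelin-1, 46.1 ± 2.37% with sacubitrilat and 49.5 ± 2.36% with vehicle. ATP5MC1 gave the least in each group, at 17.5 ± 2.19% with both compounds, 19.0 ± 1.70% with endothelin-1, 16.7 ± 1.74% with sacubitrilat and 19.9 ± 1.72% with vehicle.

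The 2 primary comparisons of the series both set high-total against low-total libraries. With endothelin-1 against vehicle, 21 of 83 genes passed as higher and 11 as lower, beside 11% and 12.2% of all tested genes, with a median log2 fold change of 0.31 over the 83 genes and 0.10 over all. Complex IV gave 6 higher and 0 lower of 13, complex V 5 and 1 of 17, complex III 4 and 1 of 10, complex II 1 and 0 of 4, and complex I 5 and 9 of 38. COX7B was higher by 1.27 ± 0.22 on the log2 scale (edgeR adjusted p = 4.01e-05), UQCRFS1, the Rieske iron-sulfur protein of complex III, by 1.09 ± 0.30, and ATP5F1C by 1.06 ± 0.20. NDUFB7, an accessory subunit of complex I, was lower at -1.39 ± 0.19 (edgeR adjusted p = 6.29e-07), and NDUFV1 at -1.38 ± 0.25. The split depended on the filter and on which groups were fitted: it was 31 higher and 4 lower with no filter, 10 and 14 with a mean of at least 50 counts, 14 and 14 with the compared groups alone, and 3 and 8 with all libraries thinned to 80000 counts. Here and below, shares of all tested genes are given for the fits as reported and not for the alternatives. The splits under alternatives therefore describe dependence on processing and not a trait of these genes.

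Both compounds against endothelin-1 called 16 genes higher and 29 lower of 83, beside 16.6% and 17.8% of all tested genes, with a median of -0.38 over the 83 genes and -0.23 over all. Complex I held 12 of the 16 higher genes and 8 lower ones. Complex V had 1 higher and 9 lower, complex IV 1 and 5, complex III 2 and 4, and complex II 0 and 3. NDUFV1 was higher by 2.32 ± 0.23 (edgeR adjusted p = 6.96e-10), NDUFB7 by 1.68 ± 0.20, NDUFS5, a small accessory subunit of complex I, by 1.5 ± 0.18, and NDUFS8 by 1.49 ± 0.16. NDUFA8, an accessory subunit of complex I, was lower at -1.92 ± 0.46 and SDHC, a membrane anchor of complex II, at -1.79 ± 0.44. These 2 values rested on 7 and 8.5 counts in the 3 libraries of both compounds, against 340 and 354.5 with endothelin-1. With both compounds the means were 20.2 and 22.9 CPM, where 3 counts were 18.9 to 34.4 CPM. With a mean of at least 50 counts the split was 21 higher and 11 lower, with no filter 8 and 44, and after thinning 13 and 3. This comparison shares its endothelin-1 libraries with the previous one, and 27 genes were called in both. The share of all tested genes called in both was not counted.

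Sacubitrilat against vehicle called 10 genes higher and 14 lower (beside 8.68% and 11.2% of all tested genes), with 16 and 8 under no filter, 3 and 19 with a mean of at least 50 counts, 3 and 16 with the compared groups alone, and 2 and 9 after thinning. Both compounds against sacubitrilat called 20 higher and 18 lower (beside 17.2% and 17.8% of all tested genes, 35% in all), with 9 and 34 under no filter, 24 and 5 with a mean of at least 50 counts and 16 and 0 after thinning. Relative to the fits reported, dropping the filter moved the median of all genes by over 0.1 on the log2 scale where totals differed: for both compounds against endothelin-1 it was -0.50 with no filter, against -0.23 as reported. In these 4 comparisons, the genes called each time as higher in the low-total libraries included ATP5F1D, NDUFA13, NDUFB1, NDUFB11, NDUFB7, NDUFS5, NDUFS6, NDUFS8, NDUFV1 and UQCRC1, and 7 were called each time as lower (ATP5F1C, ATP5MG, COX7B, COX7C, NDUFB2, NDUFB3 and UQCR11). The comparisons share libraries pairwise, and the share of all tested genes called each time was not counted. These lists were therefore given as a description, chosen after their values were seen, and not as a trait of respiratory chain genes.

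The interaction, which asks whether both compounds together differ from the sum of each alone, runs exactly along the difference in totals, and depth and interaction cannot be told apart. It called 17 genes higher and 32 lower of 83, beside 20.1% and 26% of all tested genes, with a median of -0.56 over the 83 genes and -0.43 over all. NDUFV1 on chromosome 11 (67606936 to 67612554) had the largest value. Its level was 2177, 869 and 845 CPM with both compounds, 227, 227 and 251 CPM with endothelin-1, 195, 171 and 168 CPM with sacubitrilat, and 359.7, 1385 and 580.2 CPM with vehicle. The highest levels were in the library of both compounds with 87281 counts and the vehicle library with 80844, the smallest totals of the series. The log2 interaction was 4.22 ± 0.34 (SE, n = 3 per group, edgeR adjusted p = 1.30e-12). NDUFS8 was at 527, 592 and 674 CPM with both compounds, 212, 206 and 212 CPM with endothelin-1, 212, 192 and 184 CPM with sacubitrilat, and 387, 557 and 369 CPM with vehicle (2.63 ± 0.23). All 6 low-total libraries stood above all 6 high-total ones for both genes, as for 12 of the 83 genes, beside 9.7% of all tested genes. COX7B showed the opposite order, at 91.7, 129 and 55.6 CPM with both compounds, 212, 213 and 195 CPM with endothelin-1, 168, 169.9 and 164 CPM with sacubitrilat, and 93.1, 74.2 and 82.0 CPM with vehicle (-2.01 ± 0.34). All low-total libraries lay below all high-total ones for 24 of the 83 genes, beside 13.6% of all tested genes.

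**Figure D4:**
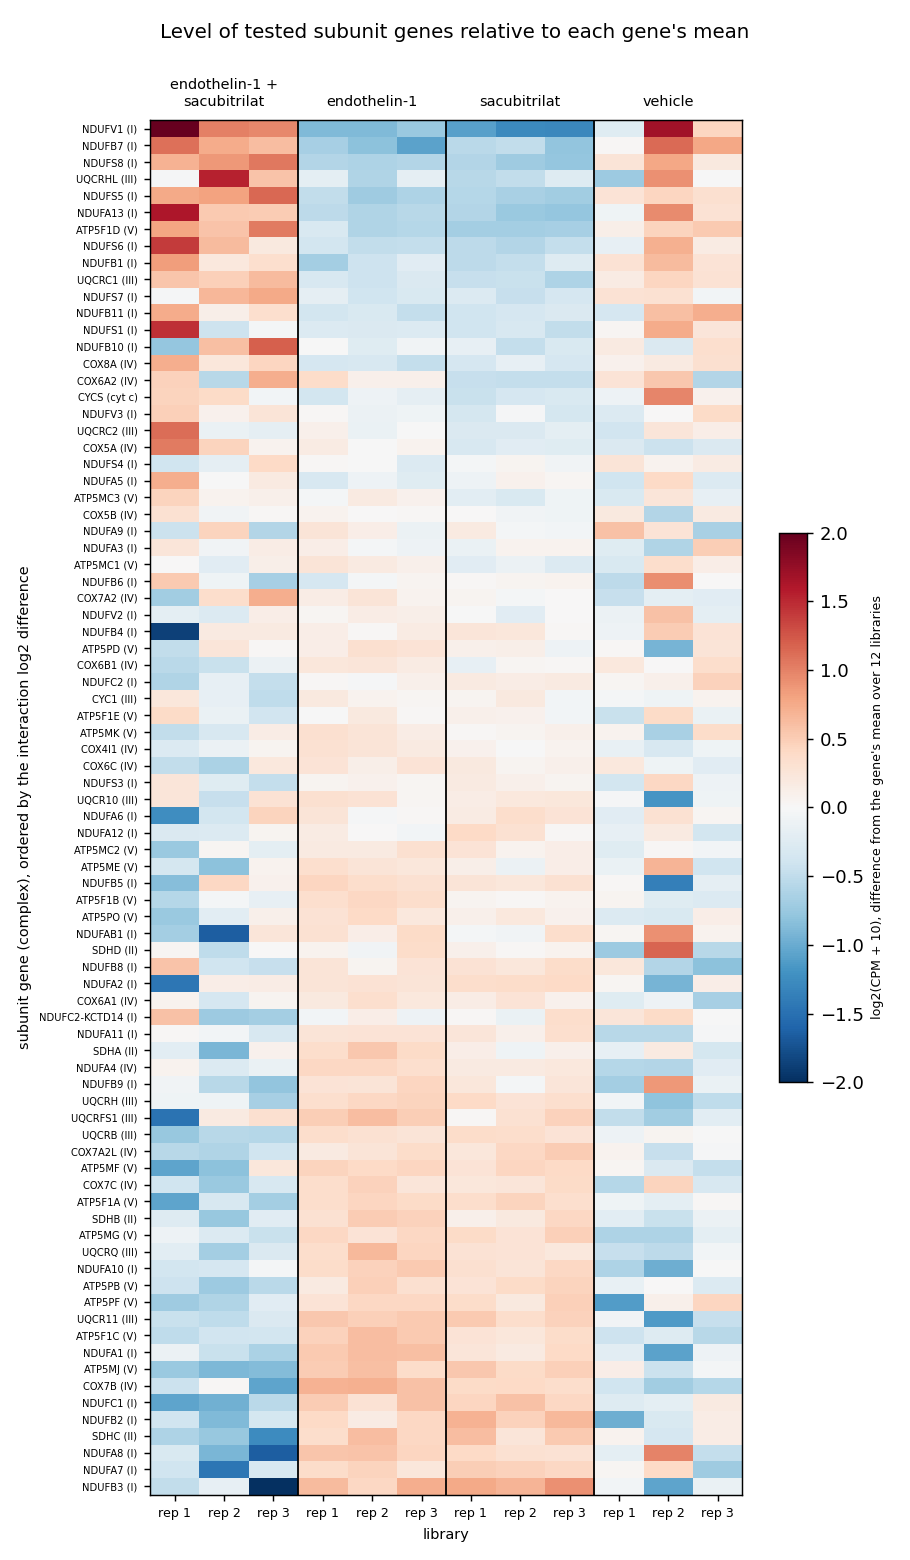
Level of the tested subunit genes but 1 (rows, complex in brackets, ordered by the interaction) in the 12 libraries (columns, by group), as log2(CPM + 10) minus the gene's mean over libraries, with the colour scale ending at -2 and 2. Genes at the top are high and genes at the bottom low in the libraries of both compounds and of vehicle, the low-total ones, with NDUFV1 at one end and NDUFB3 at the other.

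By complex, most of the genes called higher for the interaction were in complex I. Of its 38 genes 12 were called higher and 9 lower, and 5 of its 7 core subunits were called, all higher (median 1.55). The summed level of the core subunits, which carry the flavin and iron-sulfur centres, was 3435, 1962 and 2127 CPM with both compounds, 853, 830.03 and 866 CPM with endothelin-1, 792, 736 and 749 CPM with sacubitrilat, and 1223, 2709 and 1452 CPM with vehicle. Complex V had 1 higher and 10 lower of 17, complex IV 1 and 5 of 13, complex III 2 and 5 of 10, and complex II 0 and 3 of 4. ATP5F1D, the delta subunit of the ATP synthase head, was the 1 called higher in complex V (2.37 ± 0.24), while ATP5F1B, its catalytic beta subunit, was called lower (-0.75 ± 0.30, edgeR adjusted p = 0.0355, or 0.0721 with the block). In complex III, the core subunit gene UQCRC1 was called higher (1.73 ± 0.23) and the hinge protein gene UQCRH lower (-1.27 ± 0.31). UQCRHL, a near-copy of UQCRH, took 16.4 ± 9.23% of the counts of the pair with both compounds, 3.22 ± 1.16% with endothelin-1, 2.77 ± 0.80% with sacubitrilat and 11.99 ± 11.8% with vehicle, and the split of reads between them is uncertain.

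The base composition of the transcript's 3′ end was set beside the interaction. Over the last 300 bases of each gene's transcript, G + C had a Spearman rho of 0.40 with the log2 interaction across the 83 genes and 0.15 across 9724 tested genes with an annotated transcript, which share libraries, depth and base composition. For endothelin-1 against vehicle rho was -0.44 across the 83 genes and -0.09 across all genes. At like totals, it was 0.05 for endothelin-1 against sacubitrilat (0.07 across all genes). For both compounds against vehicle it was 0.15 (0.12 across all genes). Median G + C was 55.5% in the 16 genes called higher with both compounds against endothelin-1, 40% in the 29 called lower and 41.2% in the 38 not called. For the interaction the medians were 55% in genes called higher, 40.2% in those called lower and 40.7% in those not called, so the called-lower genes lay close to the uncalled ones. NDUFA11, named after its value was seen, held 63.3% and was called lower for the interaction. NDUFV1 held 64.0%, NDUFB7 62.7%, NDUFS8 61.0% and ATP5F1D 66.7%, against 36.7% in NDUFB3, 31% in SDHC and 30.0% in COX7B. NDUFS5, high in the low-total libraries, held 46.3%, the same as NDUFA8, which was low in those given both compounds. Transcript length had a rho of -0.05 with the interaction. Markers of endoderm and liver, all 13 of which had counts, also followed the totals, with summed levels of 548 to 791 CPM with both compounds, 64.5 to 102 CPM with endothelin-1, 66.1 to 75.7 CPM with sacubitrilat and 257 to 915 CPM with vehicle. Fibroblast markers summed to 5136 ± 1911 CPM with both compounds, 10143 ± 522 CPM with endothelin-1, 10250 ± 276 CPM with sacubitrilat and 5911 ± 1890 CPM with vehicle. The part of these in the respiratory chain values was not tested.

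**Figure D5:**
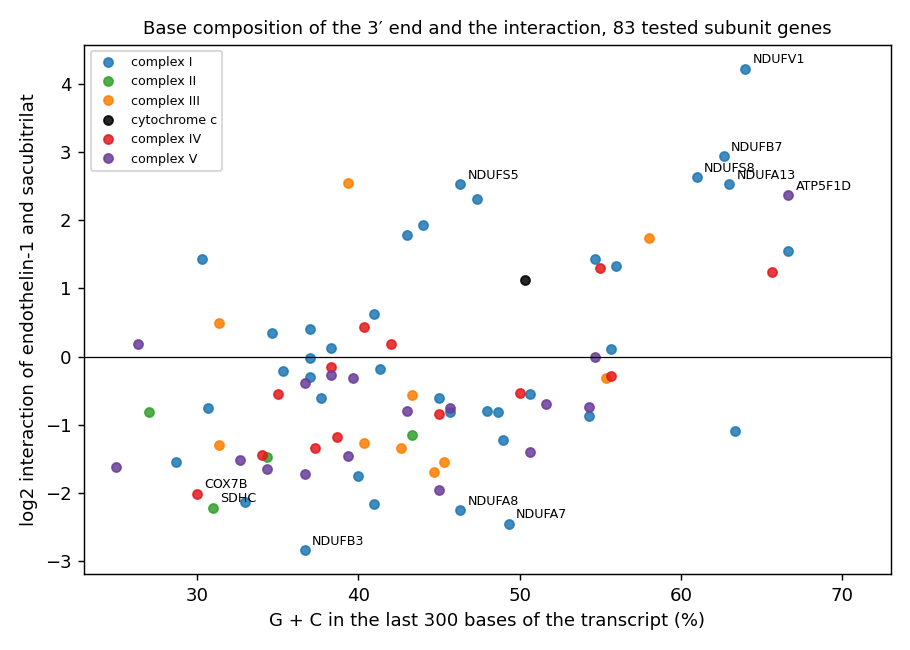
G + C in the last 300 bases of the transcript (x axis, %) and the log2 interaction of endothelin-1 and sacubitrilat (y axis) for the 83 tested subunit genes, coloured by complex. NDUFV1 and ATP5F1D, of high G + C, lie at the top, and SDHC, COX7B and NDUFB3 at the bottom (Spearman rho 0.40 across genes).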

How the data were processed

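RNA was measured in 12 libraries of 4 groups (3 independent cultures each) from 1 human cell line. Per the labels' protocols the libraries were stranded, single-end, primed with poly(dT) and tagged with molecular identifiers. The submitters' processing notes name fastp 0.24.0, featureCounts and GRCh38. For the aligner, annotation release, use of the identifiers and strand setting, the sources used here name none. The deposited table holds estimated counts, some of them fractions, and CPM that the authors computed on each library's total. The CPM are printed as levels. No sample column was left unused.

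Estimated counts were rounded. edgeR 4.0.16 (R 4.3.3) with TMM scaling and its expression filter fitted all 12 libraries with 1 term per group, and quasi-likelihood tests were adjusted by Benjamini-Hochberg over 11203 genes, with a threshold of 0.05. SE is the log2 fold change over the square root of F. The 92 spike-in features held 0 counts. Library totals ran from 80844 to 1953122 counts, so that 3 counts, the floor, were 1.54 CPM in the deepest library and 37.1 CPM in the shallowest. Isoform shares were compared by exact permutation within the level of the other compound (SciPy 1.17.1). The edgeR test was run on simulated data for some pairwise comparisons only, with the same profile in every group apart from chosen genes. The averaged contrasts, the interaction and the permutation test were not simulated.

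Each result was recomputed with RLE scaling, without the filter, with genes of a mean of 50 or more counts, by DESeq2 1.42.0 and limma-voom 3.58.1, with a replicate block, on the compared groups alone, after thinning to 80000 counts, leaving out libraries under 100000 counts, mitochondrially encoded genes or each library, and with the single-compound labels exchanged. The batch label holds only the replicate number, and it does not say whether same-numbered cultures were paired. In the data, same-numbered samples had correlations of deviations between -0.15 and 0.04 over 18 pairs, none above 0.1.

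Genes were named by rule: the isoform pairs and other paralogs, in each comparison up to 6 called genes per direction by fold change with a mean of at least 20 CPM, the most abundant gene of each complex, and up to 2 called genes per direction in other lists. Values of 1 gene are not reported singly here. The genes and lists were chosen with earlier results of these data known. Among the 91 genes, 52 have 237 named pseudogenes, which held 0.843% as many counts as the genes. In the annotation, 49 share exon positions with another gene on either strand. COX6A2 overlaps a gene on the opposite strand only, and COX6A1 one on its own.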

Additional observations from a re-analysis of the deposited data

Results flagged for a closer look

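The effect of endothelin-1 differed with and without sacubitrilat, by the edgeR interaction test, for 49 of 83 respiratory chain genes, beside 46.1% of all tested genes. The difference runs along library total, and the 2 cannot be told apart. Among the named genes of complex I, the log2 interaction was 4.22 for NDUFV1, 2.94 for NDUFB7, 2.63 for NDUFS8, 2.53 for NDUFS5 and 2.53 for NDUFA13. It was -2.83 for NDUFB3, -2.45 for NDUFA7, -2.24 for NDUFA8, -2.16 for NDUFB2 and -2.13 for NDUFC1. In complex II it was -2.21 for SDHC and -1.47 for SDHB. In complex III it was 2.55 for UQCRHL and 1.73 for UQCRC1, against -1.27 for UQCRH. CYCS had 1.12. In complex IV it was 1.3 for COX8A, the liver-type isoform present in most tissues, and negative for COX7B (-2.01), COX7A2L (-1.34), NDUFA4 (-1.18) and COX6A1 (-0.83). In complex V it was 2.37 for ATP5F1D, -0.75 for ATP5F1B and -0.70 for ATP5MC2. Several of these values rested on few counts in the low-total groups. Summed over 3 libraries, NDUFB3 had 7 counts with both compounds and 17.5 with vehicle. In the same order, NDUFA7 had 4.5 and 13.5, NDUFA8 7 and 25, NDUFB2 19 and 31, and NDUFC1 11 and 30.5. SDHC had 8.5 and 29, and UQCRHL 12.5 and 5.5.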

How the results depend on the processing

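Of the values for named genes outside the fits that left out a library, 1182 kept direction and side of the threshold, 154 lost it, 19 gained it and 31 changed sign. The cause of the following moves in the counts of called genes was not tested, and shares of all tested genes are not given beside them. Thinning gave 11 for endothelin-1 against vehicle, 16 for both compounds against endothelin-1, 11 for sacubitrilat against vehicle, 16 for both compounds against sacubitrilat, 23 for the interaction (15 higher, 8 lower), and 0 for endothelin-1 against sacubitrilat and for endothelin-1 averaged. Endothelin-1 against sacubitrilat gave 3 with no filter, 17 with a mean of at least 50 counts, 2 by limma-voom, 4 with the replicate block, 34 with the groups alone and 29 without libraries under 100000 counts. Endothelin-1 averaged gave 5 by RLE, 1 with no filter, by limma-voom or with the block, 8 with a mean of at least 50, by DESeq2 or without libraries under 100000 counts, and 0 with labels exchanged. Both compounds against vehicle gave 3 with a mean of at least 50, 5 by DESeq2 and 4 without libraries under 100000 counts. Sacubitrilat averaged gave 1 by DESeq2 or without those libraries and 3 with labels exchanged. The interaction split was 17 higher and 32 lower as reported, 10 and 50 with no filter and 22 and 16 with a mean of at least 50. The block moved no other count of calls by over 1.5 times, with 26, 42, 21 and 36 calls in the 4 comparisons across totals and 46 for the interaction.

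The median of all genes was 0.29 with no filter against 0.10 for endothelin-1 against vehicle, -1.32 with no filter and -0.12 with a mean of at least 50 against -0.43 for the interaction, and with a mean of at least 50 it was 0.01 against 0.14 for sacubitrilat against vehicle, -0.08 against -0.23 for both compounds against endothelin-1 and -0.08 against -0.25 for both compounds against sacubitrilat.

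With labels exchanged, endothelin-1 against sacubitrilat changed sign by construction: COX6A2 -1.38, ATP5MC1 -0.54, SDHA -0.53, COX5A -0.47, NDUFA1 -0.44, COX7B -0.42, ATP5MC3 -0.39, COX7A2 -0.27 and COX6A1 -0.20. COX6A2 then had -1.21 for endothelin-1 against vehicle, 0.17 for sacubitrilat against vehicle, -0.59 for endothelin-1 averaged and 0.79 for sacubitrilat averaged, and its share changed by -1.94 and 1.83 percentage points. Other sign changes were in uncalled or barely called values. For both compounds against endothelin-1, COX6A1 had 0.0439 with a mean of at least 50 and 0.27 thinned, COX6A2 -0.44 with no filter and -0.0919 without libraries under 100000 counts, and COX7A2 -0.35 with no filter. For both compounds against sacubitrilat, COX6A1 had 0.24 with a mean of at least 50, and with no filter COX7A2 had -0.0796 and ATP5MC3 -0.0239. COX6A2 had -0.0266 with no filter for both compounds against vehicle. Thinned, COX6A1 had -0.47 and COX7A2 -0.0823 for endothelin-1 against sacubitrilat, and COX6A1 -0.0846 for endothelin-1 averaged. For sacubitrilat averaged, COX6A1 had -0.0782 with no filter and -0.00327 without libraries under 100000 counts. The interaction of COX7A2 was 0.54 with a mean of at least 50, 0.27 thinned and 0.0793 without those libraries, and that of ATP5MC2 0.0013 with a mean of at least 50.

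Leaving out each library gave 20 to 39 calls for endothelin-1 against vehicle, 35 to 53 for both compounds against endothelin-1, 15 to 27 for sacubitrilat against vehicle, 29 to 43 for both compounds against sacubitrilat, 0 to 2 for both compounds against vehicle, 4 to 22 for endothelin-1 against sacubitrilat, 1 to 6 and 0 to 1 for the averaged contrasts and 42 to 59 for the interaction. The COX6A2 share differences ran over 0.749 to 3.07 and -3.02 to -0.698 points. Signs changed within COX6A1 for both compounds against sacubitrilat (-0.46 to 0.0037) and sacubitrilat averaged (-0.0851 to 0.12), COX6A2 for endothelin-1 against vehicle (-0.10 to 0.86), both compounds against endothelin-1 (-0.73 to 0.38) and both compounds against vehicle (-0.49 to 0.66), and COX7A2 for both compounds against endothelin-1 (-0.32 to 0.30), both compounds against sacubitrilat (-0.0439 to 0.57) and the interaction (-0.67 to 0.0816).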
